A study of Mus musculus with 28 samples.

Results

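The genes described here encode the actin core of the microvillus, the finger-like protrusion that covers the apical face of gut epithelium. They were chosen with earlier results of these data known and taken by name from the count table: Vil1, Espn, Pls1, Ezr, Eps8, Myo1a and Myo1d. These are 7 of its 55011 gene symbols. All 7 had reads in every library and passed the filter on low counts in every fit. RNA was sequenced in bulk from medullary thymic epithelial cells (mTECs), stromal cells of the thymus that switch on genes of many other tissues and display their products to developing T cells. There were 28 libraries in 8 groups, all from C57BL/6 mice whose ages the labels do not give. In wild-type thymus, an entero-hepato mTEC gate (n = 3) was sorted beside a non-entero-hepato gate (n = 3), and the sources used here do not name the surface markers of these gates. All other mice carried 1 copy of Foxn1-Cre, whose promoter drives recombination in thymic epithelium. Post-Aire mTEClo came from control mice (Hnf4a fl/+, Hnf4g +/-, n = 4), Hnf4a-removed mice (Hnf4a fl/fl, Hnf4g +/-, n = 3), Hnf4g-removed mice (Hnf4a fl/+, Hnf4g -/-, n = 3) and double mutants (Hnf4a fl/fl, Hnf4g -/-, n = 4). Control (n = 4) and double-mutant (n = 4) mice of these same genotypes also gave mTEChi. The control mice therefore carried 1 intact allele of each gene, and no mutant group was set against a wild type.

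A microvillus is held up by a bundle of parallel actin filaments. Villin, espin and plastin 1 tie the filaments together, EPS8 sits at the tip where filaments grow, class I myosins bridge the side of the bundle to the membrane, and ezrin links actin to membrane proteins. In the intestine, enterocytes pack such protrusions densely into the brush border, while tuft cells, a chemosensory type, carry a tuft of longer and thicker ones with deep rootlets. HNF4A and HNF4G are related nuclear receptors that bind DNA in intestinal and hepatic cells and are known for driving enterocyte genes.

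Total counts ranged from 4330120 to 8342583 per library, and the 7 genes together took between 0.0577% and 0.220% of the counts of a library. Levels below are CPM, the read count of a gene scaled to a common library total, with TMM factors over all 28 libraries, with SD over the libraries of a group, and a test is edgeR's quasi-likelihood test with Benjamini-Hochberg adjustment over all genes tested, called at adjusted p under 0.05. The labels number the thymi but leave unsaid whether each library of a group is another animal, and a p-value here therefore reflects only how much these libraries vary, possibly for technical reasons. All 13 mTEC markers examined had reads in every group and summed to between 10431 and 53178 CPM, led by H2-Ab1, Cd74 and H2-Aa. The 13 thymocyte markers summed to at most 159 CPM in any library, and the 12 myeloid markers to between 174 and 1705 CPM. These sums do not measure purity. On the first principal component of mTEClo, the libraries numbered 1 of the control, Hnf4a-removed and Hnf4g-removed groups stood apart from the others of their groups, on the side where all 4 double mutants lay (control 1 at -2.24 against 15.8 to 33.0 for the other controls, and the double mutants at -28.3 to -18.3). Hnf4g-removed 1 was the lowest of all mTEClo libraries, at -43.3 against 11.4 and 15.6 for the others of its group. Hnf4a-removed 1 was at -4.65 against 17.4 and 25.3. Leaving these 3 libraries out therefore widens contrasts with the double mutants by construction. In bulk RNA, fewer cells of a type and less RNA per cell cannot be told apart.

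RefSeq promoter windows (build GRCm38.p6) were found for 5 of the 7 genes, with none for Eps8 and Myo1d. The stretches before the first annotated exon are shown for Vil1 and Myo1a, which were among the genes most enriched in the entero-hepato gate, and for the outermost of the 3 Espn windows, since Espn went the other way. Capitals mark a match to a motif that was searched on both strands.
Vil1, chr1:74409134-74409375, plus strand: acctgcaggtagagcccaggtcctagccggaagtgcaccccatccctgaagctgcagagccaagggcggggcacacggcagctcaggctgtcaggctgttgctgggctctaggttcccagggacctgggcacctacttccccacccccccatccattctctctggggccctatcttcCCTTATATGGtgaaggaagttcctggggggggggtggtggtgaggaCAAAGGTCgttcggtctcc
Myo1a, chr10:127705006-127705169, plus strand: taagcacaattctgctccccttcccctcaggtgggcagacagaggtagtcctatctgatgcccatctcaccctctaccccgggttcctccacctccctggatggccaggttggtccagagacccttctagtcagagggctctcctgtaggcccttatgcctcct
Espn, chr4:152152390-152152639, minus strand: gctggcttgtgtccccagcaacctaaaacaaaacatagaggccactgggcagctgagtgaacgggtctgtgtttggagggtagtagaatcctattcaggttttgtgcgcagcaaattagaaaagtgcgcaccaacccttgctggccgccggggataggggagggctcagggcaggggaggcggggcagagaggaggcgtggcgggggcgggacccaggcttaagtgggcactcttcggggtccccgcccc
The motif CAAAGTCCA, the letters best known for HNF4 receptors, was in 0 of the 7 windows of these genes and in 0.475% of the 32851 promoter windows of the table. The letters CAAAGGTC, which other nuclear receptors also bind, lay in the Vil1 window at -27 to -20 relative to its start and were in 1.17% of all windows. A CArG box, the motif of serum response factor, lay in the same window at -73 to -64 and was in 1.63% of all windows. The last 2 motifs were picked after the windows had been read, the matches do not overlap, and a match describes the letters only.

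Levels of the 7 genes covered very different ranges over the 8 groups. Vil1, villin, which severs, caps and bundles actin, varied 35.2-fold between the highest and the lowest group mean, and Myo1a, the brush border myosin I, varied 40.5-fold. Eps8, the capping and bundling protein of microvillus tips, varied 19.0-fold and Espn, the bundling protein espin, 11.3-fold. Pls1, plastin 1, a bundling protein that also ties the core to the terminal web, varied 5.86-fold, Myo1d, another class I myosin of the brush border, 3.58-fold and Ezr, ezrin, 1.96-fold. The entero-hepato gate ranked first for 6 of the 7 genes, the exception being Espn. Only for Myo1d did libraries of that gate overlap those of the group ranked next.

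**Figure D1:**
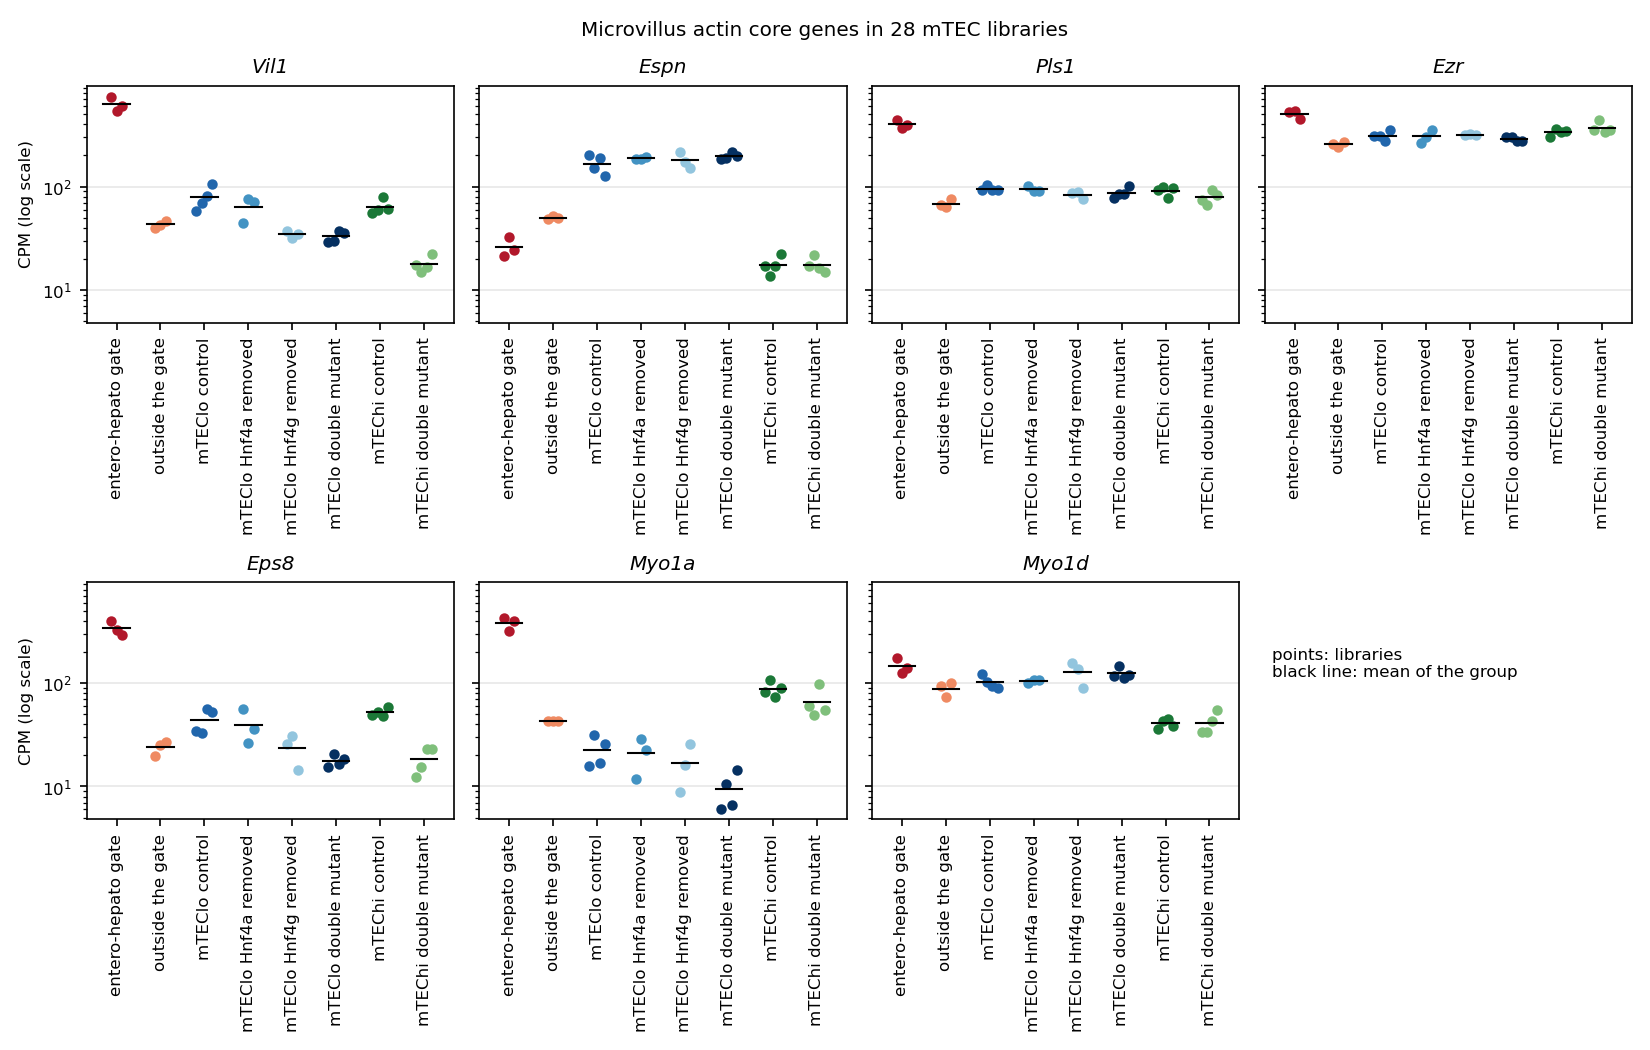
CPM on a log axis for each of the 7 genes in 28 libraries of 8 groups, with 1 point per library and a black line at the group mean. The entero-hepato gate lies highest for 6 genes, while Espn lies highest in the 4 mTEClo genotypes.

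Cells of the entero-hepato gate had high levels of most of the actin core. The bundling protein Vil1 and the tip protein Eps8 rose the most, 14.4-fold and 13.9-fold, followed by Myo1a at 8.76-fold and Pls1 at 5.81-fold. Ezr rose 1.94-fold and Myo1d 1.63-fold, and Espn, the bundling protein that remained, fell to 0.521 of its level outside the gate. Thus 6 of the 7 genes were called higher and 1 lower by edgeR, where 22.6% of the 16811 genes tested were called higher and 21.6% lower (44.3% in either direction). The 7 genes were chosen with earlier results of these data known, so these shares describe them and do not test the set. The median log2 fold change was 2.54 over the 7 genes and -0.05 over all genes tested.

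Among the bundling proteins, Vil1 (chr1:74409376-74435559, plus strand) was at 739, 539 and 600 CPM in the 3 entero-hepato libraries and at 40.1, 42.8 and 46.5 CPM in the 3 libraries outside the gate. The lowest library of the gate was thus far above the highest library outside it. The log2 fold change was 3.85 (SE 0.14, adjusted p = 3.99e-07, edgeR). Villin is a defining protein of the intestinal brush border and a marker of gut epithelium. Pls1 (chr9:95752642-95845311, minus strand) was at 441, 373 and 394 CPM in the gate and at 66.6, 63.4 and 75.9 CPM outside it. All libraries of the gate were higher, with a log2 fold change of 2.54 (SE 0.11, adjusted p = 5.03e-07, edgeR). Espn (chr4:152120331-152152371, minus strand) was at 21.5, 32.5 and 24.6 CPM in the gate and at 48.6, 51.6 and 49.3 CPM outside it. Here every library of the gate was lower, with a log2 fold change of -0.94 (SE 0.18, adjusted p = 0.00215, edgeR).

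At the microvillus tip, Eps8 (chr6:137477245-137654876, minus strand) was at 396, 324 and 294 CPM in the gate and at 19.7, 25.4 and 27.0 CPM outside it. The groups did not overlap, and the log2 fold change was 3.80 (SE 0.16, adjusted p = 5.19e-07, edgeR). Of the lateral motors, Myo1a (chr10:127705170-127720940, plus strand) was at 423, 320 and 401 CPM in the gate and at 42.7, 43.0 and 43.5 CPM outside it. The libraries outside the gate lay within 1 CPM of each other and all were far lower, with a log2 fold change of 3.13 (SE 0.13, adjusted p = 4.66e-07, edgeR). Myo1d (chr11:80482126-80780025, minus strand) was at 175, 125 and 139 CPM against 93.2, 73.1 and 99.6 CPM. These groups did not overlap either, and the log2 fold change was 0.71 (SE 0.15, adjusted p = 0.00475, edgeR). The linker Ezr (chr17:6738041-6782784, minus strand) was at 527, 534 and 446 CPM in the gate and at 258, 242 and 270 CPM outside it, with a log2 fold change of 0.96 (SE 0.09, adjusted p = 5.02e-05, edgeR).

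All 7 calls were kept when any 1 of the 6 libraries was left out. With plain library totals in place of TMM, the share of called genes that were higher went from 51.1% to 27.7% and the median log2 fold change of all genes from -0.05 to -0.41. All 7 genes kept their direction on that scale, but Myo1d was at 0.34 and lost its call (adjusted p = 0.0772, edgeR).

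Other genes of the same structure were read from 4 lists of relatives and partners, also chosen with earlier results of these data known. Their counts stand beside the 22.6% of all genes called higher and the 21.6% called lower in the gate. Of the microvillus assembly and adhesion list, 10 of 11 tested genes rose in the gate and 0 fell, with a median log2 fold change of 2.32. They were led by Cdhr5 (1207 ± 210 against 91.2 ± 7.90 CPM) and Cdhr2, the protocadherins that link neighbouring microvillus tips, and Misp, a protein of actin rootlets (838 ± 55.4 against 167 ± 11.9 CPM). Among the 14 genes of membrane linkage, 7 rose and 3 fell, with the scaffold of ezrin Slc9a3r1 and Clic5, an ezrin-associated protein, up 2.02 and 1.94 on the log2 scale and Rhoa, a small GTPase, up 0.66. The fallen genes included Msn and Rdx, moesin and radixin, the paralogs of ezrin, at -0.43 and -0.68, and Nf2, which encodes the related merlin, at -0.84.

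Paralogs of the actin core genes did not move as 1 block. Of 18 actin bundling, severing and capping relatives, 8 rose and 2 fell in the gate, with a median of 0.24. Of all genes tested there, 22.6% were called higher and 21.6% lower (44.3% in either direction). The EPS8 relatives Eps8l2 and Eps8l3 rose by 2.51 and 3.94 on the log2 scale and Actb, cytoplasmic actin, by 0.76. Advillin (Avil), a villin relative and tuft cell marker, fell from 478 ± 113 to 42.0 ± 21.4 CPM, and the espin relative Espnl fell by 0.94 on the log2 scale, close to the change of Espn. Of 16 myosins and light chains, 10 rose and 3 fell, with a median of 0.61. Myh14, a nonmuscle myosin, Myo5b, a vesicle motor, and Myo6, a motor of the microvillus base, rose by 1.80, 1.52 and 1.19 on the log2 scale. Msn, Rdx, Nf2, Avil and Espnl were picked for mention from the fallen genes after their values had been seen.

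Cell type markers differed between the gates as well. All 16 enterocyte markers had reads in both gates, and their sum was 5958 to 9134 CPM in the entero-hepato libraries against 346 to 380 CPM outside, with 14 of the 16 called higher and 0 lower. All 15 tuft markers had reads in both gates, and their sum went the other way, from 2110 to 3138 CPM outside the gate to 208 to 465 CPM inside it, with 13 called lower and 1 higher. The 12 myeloid markers summed to 634 to 1023 CPM in the gate and 291 to 432 CPM outside, 1 of them without reads outside, and the 6 erythroid markers, all with reads in both gates, summed to 167 to 248 CPM against 16.7 to 26.2 CPM. The part of these cell types in the levels of the 7 genes was not tested.

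**Figure D2:**
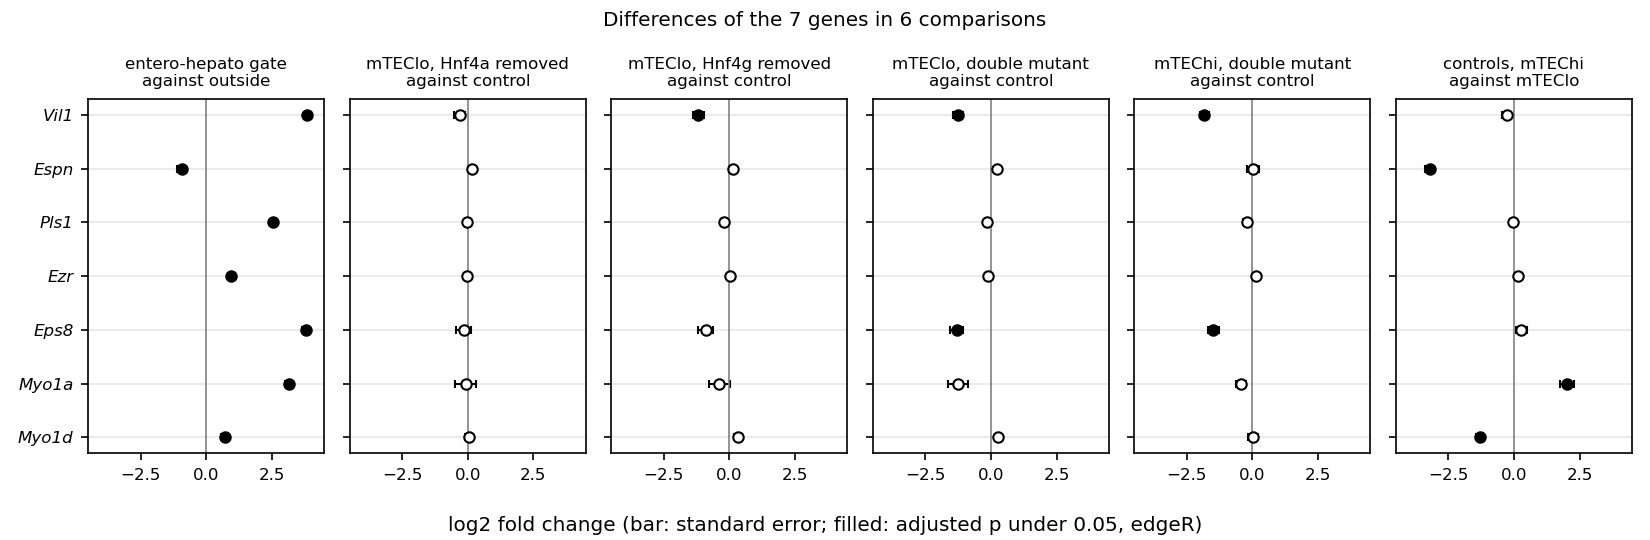
Log2 fold changes of the 7 genes in 6 comparisons, with standard errors as bars and filled points for genes called at adjusted p under 0.05 by edgeR. In the mutants the filled points are Vil1 and Eps8, both lower, while all 7 genes are filled in the comparison of the gates.

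The targeted genes were read first in the mutants. Hnf4g was at 12.7 ± 2.73 CPM in control mTEClo, 8.12 ± 0.776 CPM when Hnf4g was removed, 7.83 ± 1.60 CPM when Hnf4a was removed and 5.23 ± 2.24 CPM in the double mutants. The level was thus as low with 1 intact Hnf4g allele in the Hnf4a-removed mice as in the Hnf4g-removed mice. In mTEChi it was at 19.7 ± 3.22 CPM in controls and 7.54 ± 3.59 CPM in double mutants. Hnf4a was low in all groups of mTEClo and mTEChi, with group means between 3.15 and 4.63 CPM, and neither gene passed the test in any mutant comparison. Which exons were deleted is not stated in the sources used here, and whole-gene counts can include reads from the exons that remain, so these levels do not check the labels.

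In mTEClo of the double-mutant genotype, Vil1 and Eps8 fell and the other 5 genes did not pass the test. Vil1 fell from 78.8 ± 20.8 CPM in control mTEClo to 33.3 ± 4.14 CPM (n = 4 each), which is 2.37-fold lower, and Eps8 fell from 43.9 ± 12.1 to 17.8 ± 2.36 CPM, 2.48-fold lower. So 2 of the 7 genes were called lower and 0 higher, where 0.57% of the 18775 genes tested were called lower and 0.74% in either direction. The median log2 fold change of the 7 genes was -0.13.

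The 4 control libraries had 58.4, 69.1, 80.7 and 107 CPM of Vil1, and the 4 double-mutant libraries had 29.4, 30.0, 37.6 and 36.0 CPM. All double-mutant libraries were below all controls (log2 fold change -1.25, SE 0.19, adjusted p = 0.00628, edgeR), and the call held when any 1 library was left out (highest adjusted p 0.0291). Eps8 was at 34.1, 32.8, 55.8 and 53.0 CPM in the controls and at 15.3, 20.7, 16.6 and 18.5 CPM in the double mutants. The groups did not overlap (log2 fold change -1.31, SE 0.27, adjusted p = 0.0301, edgeR), but the call was lost in 6 of 8 fits that left out 1 library, namely those without control 3, control 4 or any 1 of the double mutants, with adjusted p up to 0.110. Myo1a was at 15.6, 31.2, 17.1 and 25.5 CPM in the controls and at 6.11, 10.6, 6.62 and 14.4 CPM in the double mutants. Its groups did not overlap and its log2 fold change of -1.25 was as large as that of Vil1, but with an SE of 0.37 it missed the threshold (adjusted p = 0.159, edgeR). By DESeq2, which called 451 genes here where edgeR called 139, Myo1a passed (adjusted p = 0.0303).

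The remaining bundling proteins, the linker and the other motor had overlapping groups in double-mutant and control mTEClo. The level of Espn was 196 ± 12.8 CPM in the double mutants and 167 ± 35.0 CPM in the controls (log2 fold change 0.23, SE 0.13). In the same order, Pls1 was at 87.1 ± 9.59 against 95.2 ± 4.94 CPM (-0.13, SE 0.10), Ezr at 276 to 300.3 against 275 to 350.0 CPM (-0.11, SE 0.09) and Myo1d at 112 to 148 against 90.5 to 122 CPM (0.28, SE 0.14). Their adjusted p-values by edgeR ran from 0.453 for Myo1d to 0.688 for Ezr.

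Among the related lists, the adhesion complex that joins microvillus tips was the one with lower genes in double-mutant mTEClo. Of 11 genes of microvillus assembly and adhesion tested, 3 fell and 0 rose: Anks4b, a scaffold of that complex, from 29.1 ± 6.16 to 6.93 ± 2.92 CPM, Ush1c, the scaffold harmonin, from 13.0 ± 4.04 to 3.14 ± 0.400 CPM, and Calml4, a calmodulin-like light chain of its motor, from 139 ± 11.4 to 76.2 ± 8.21 CPM. The call of Ush1c was lost in 5 of 8 fits that left out 1 library, namely those without control 4 or any 1 of the double mutants. The villin relative Avil rose from 2570 ± 349 to 3420 ± 185 CPM, the 1 called gene of 18 bundling, severing and capping relatives, and lost its call in 7 of 8 such fits, all but that without control replicate 1. Of 13 membrane linkage genes and 15 myosins and light chains tested, 0 were called by edgeR.

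Enterocyte markers summed to 364 to 594 CPM in control and 120 to 145 CPM in double-mutant mTEClo, all 16 with reads in both, and 7 of them were called lower and 0 higher. Tuft markers summed to 9611 to 12694 CPM in control and 13666 to 14505 CPM in double-mutant mTEClo, all 15 with reads, and 2 of them were called higher, Ptgs1 and Avil. Sums of other lists that did not overlap were those of microfold markers (4701 to 6118 CPM in control and 4198 to 4555 CPM in double mutants), mTEC markers (14487 to 19962 and 12202 to 13940 CPM) and B cell markers (138 to 162 and 189 to 212 CPM). The part of these cell types in the results for Vil1, Eps8 and Espn was not tested.

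Vil1 was also called in 1 of the single mutants. Hnf4g-removed mTEClo had 34.6 ± 2.97 CPM of Vil1 (n = 3), 2.27-fold below control and 1.04-fold above the double mutants, while Hnf4a-removed mTEClo had 63.9 ± 16.9 CPM (n = 3). Both comparisons share the 4 control libraries, and the single mutants were not tested against each other. Of the 7 genes, 1 was called lower in Hnf4g-removed mTEClo, where 0.0905% of all genes tested were called lower (0.107% in either direction). In Hnf4a-removed mTEClo, 0 of the 7 were called by edgeR or by DESeq2 and 0 had an unadjusted p under 0.05, where 0.00533% of all genes were called and 5.87% had such a p.

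The 3 Hnf4g-removed libraries had 37.5, 31.6 and 34.7 CPM of Vil1, all below the lowest control library at 58.4 CPM (log2 fold change -1.18, SE 0.21, adjusted p = 0.0365, edgeR). The call was lost in 6 of 7 fits that left out 1 library, all but that without control replicate 1 (adjusted p up to 0.157), and in a fit of these groups alone (adjusted p = 0.0562). In the 3 Hnf4a-removed libraries Vil1 was at 44.5, 75.9 and 71.3 CPM. The lowest of these was below every control library and the other two were within the range of the controls (log2 fold change -0.31, SE 0.20, adjusted p = 0.881, edgeR). Set directly against Hnf4a-removed mTEClo, the double mutants were 1.91-fold lower in Vil1 without overlap of the groups, and this missed the threshold (log2 fold change -0.93, SE 0.20, adjusted p = 0.0653, edgeR). Without Hnf4a-removed replicate 1 it passed at adjusted p = 0.0257 (edgeR). That library stood apart from its group toward the double mutants on the first principal component, so leaving it out widens this contrast by construction. By DESeq2 with all libraries the comparison passed at adjusted p = 0.00308, where DESeq2 called 283 genes and edgeR 38. Against Hnf4g-removed mTEClo the double mutants differed in Vil1 by -0.06 (SE 0.20, adjusted p = 0.955, edgeR).

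Eps8 had 25.5, 30.8 and 14.4 CPM in Hnf4g-removed libraries, all below the control range, with a log2 fold change of -0.90 (SE 0.29) that missed the threshold (adjusted p = 0.350, edgeR). In Hnf4a-removed libraries it had 55.8, 26.4 and 36.2 CPM, spread over the range of the controls and below it (log2 fold change -0.16, SE 0.28, adjusted p = 0.973, edgeR). Double mutants were 2.21-fold below Hnf4a-removed mTEClo in Eps8, without overlap but with adjusted p = 0.109 by edgeR and 0.0101 by DESeq2. The brush border motor Myo1a had 8.82, 16.2 and 25.9 CPM in Hnf4g-removed and 11.8, 28.8 and 22.8 CPM in Hnf4a-removed libraries, each spread over a wider range than the controls. Its log2 fold changes against control were -0.38 (SE 0.39) and -0.09 (SE 0.39).

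The other 4 genes stayed near control in both single mutants. Pls1 was at 83.3 ± 6.58 CPM in Hnf4g-removed mTEClo, with no overlap with control but a log2 fold change of only -0.19 (SE 0.10, adjusted p = 0.690, edgeR). Espn was at 181 ± 34.0 and 188 ± 4.38 CPM, Ezr at 317 ± 5.71 and 308 ± 43.9 CPM and Myo1d at 127 ± 33.7 and 105 ± 3.97 CPM in Hnf4g-removed and Hnf4a-removed mTEClo. The log2 fold changes of Espn, Ezr and Myo1d against control lay between -0.03 for Ezr and 0.32 for Myo1d.

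Of the 7 genes, 0 were called by edgeR in double mutants against either single mutant. In these comparisons 3 of the 7 had an unadjusted p under 0.05 against Hnf4a-removed mTEClo and 1 against Hnf4g-removed mTEClo (edgeR). Of all genes, 10.8% and 10.1% had such a p, and 0.202% and 0.0852% were called by edgeR. DESeq2 called 2 and 0 of the 7, and 283 and 159 of all genes, where edgeR called 38 and 16 of all genes. The interaction of the genotypes asks whether the double mutants changed a gene by more or less than the sum of the single mutants on the log2 scale. It gave 0 called genes of 18775 by edgeR, with 1442 (7.68%) at an unadjusted p under 0.05 and 78 called by DESeq2. For the 7 genes the interaction ranged from -0.78 (SE 0.56) for Myo1a to 0.25 (SE 0.28) for Vil1, with 0 called by edgeR or DESeq2 and 0 at an unadjusted p under 0.05.

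In the single mutants, called genes of the 4 lists again came from microvillus assembly and adhesion. Calml4, at 69.8 ± 9.28 CPM, Anks4b, at 8.99 ± 2.20 CPM, and Cdhr5, at 133 ± 18.4 CPM, fell in Hnf4g-removed against control mTEClo, 3 of 11 tested with 0 higher. The call of Calml4 was kept whichever library was left out, while Anks4b lost its call in 6 of 7 such fits, all but that without control replicate 2, and without the 3 libraries that stood apart. Cdhr5 lost its call in 5 of 7, all but those without control replicate 2 or Hnf4g-removed replicate 1. In double mutants against Hnf4a-removed mTEClo, Anks4b and Calml4 fell, by 1.83 and 0.80 on the log2 scale, both calls being lost without Hnf4a-removed replicate 3 and that of Calml4 also without double-mutant replicate 3. With either Hnf4a-removed against control or double mutants against Hnf4g-removed, 0 genes of the 4 lists were called by edgeR.

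Enterocyte markers summed to 148 to 243 CPM in Hnf4g-removed and 320 to 471 CPM in Hnf4a-removed mTEClo, all 16 with reads in both, against the control range given above. Of the 16, 2 were called lower in Hnf4g-removed mTEClo, Fabp1, the liver-type fatty acid binding protein, and Muc13, a membrane mucin, and 0 in Hnf4a-removed mTEClo. Microfold sums were also lower in Hnf4g-removed mTEClo, at 3287 to 4653 CPM, without overlap with control. Thymocyte sums were higher there, at 85.6 to 97.8 CPM against 58.3 to 82.2 CPM in control, also without overlap. The part of these cell types in the level of Vil1 was not tested.

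In mTEChi, the double mutants again had lower Vil1 and Eps8. Vil1 fell from 63.8 ± 10.8 to 17.8 ± 3.14 CPM (n = 4 each), 3.57-fold, and Eps8 from 52.3 ± 4.77 to 18.5 ± 5.42 CPM, 2.82-fold. These were 2 of the 7 genes called lower, with 0 higher, where 0.592% of 18413 genes tested were called lower and 0.63% in either direction. The median log2 fold change of the 7 genes was -0.21.

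In the 4 control libraries Vil1 was at 55.7, 59.3, 79.8 and 60.3 CPM, and in the 4 double-mutant libraries at 17.5, 14.9, 16.6 and 22.2 CPM. The highest double mutant lay well below the lowest control (log2 fold change -1.84, SE 0.17, adjusted p = 0.000391, edgeR). Control libraries had 49.3, 52.5, 48.4 and 59.0 CPM of Eps8 and double mutants 12.4, 15.4, 23.3 and 22.8 CPM. Again the groups did not overlap (log2 fold change -1.49, SE 0.21, adjusted p = 0.00327, edgeR). Both calls were kept whichever library was left out, with adjusted p up to 0.00259 for Vil1 and 0.0197 for Eps8.

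Myo1a in mTEChi was lower on average but was not called. It was at 82.8, 106, 74.1 and 89.8 CPM in the controls and at 59.6, 48.9, 97.7 and 55.5 CPM in the double mutants. Of the double mutants, the third library lay within the control range and the others below it (log2 fold change -0.43, SE 0.20, adjusted p = 0.461, edgeR). Leaving out 1 library at a time gave -0.69 to -0.32, with an adjusted p of at least 0.0548 (edgeR). Pls1 was at 66.7 to 92.3 against 77.9 to 98.0 CPM (-0.21, SE 0.13), Espn at 17.6 ± 3.03 against 17.4 ± 3.59 CPM (0.01, SE 0.22) and Myo1d at 41.3 ± 10.2 against 40.8 ± 4.28 CPM (0.02, SE 0.18). Ezr was at 369 ± 45.6 against 335 ± 25.8 CPM (0.14, SE 0.11), with 1 double-mutant library at 436 CPM above the other three. All of these groups overlapped.

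Of microvillus assembly and adhesion, 3 of 11 genes tested fell in double-mutant mTEChi and 0 rose: Cdhr5 from 156 ± 21.4 to 42.0 ± 10.5 CPM, Anks4b from 41.6 ± 7.12 to 8.72 ± 4.16 CPM and Calml4 from 77.1 ± 7.98 to 28.3 ± 4.48 CPM. These calls were kept whichever library was left out. The ezrin-associated Clic5 fell from 80.5 ± 5.60 to 46.5 ± 7.72 CPM, 1 of 14 membrane linkage genes, and Myo6 from 87.2 ± 9.25 to 54.2 ± 2.98 CPM, 1 of 16 myosins and light chains. Clic5 lost its call in 6 of 8 fits that left out 1 library, all but those without control replicate 2 or double-mutant replicate 3, and Myo6 in 5 of 8, all but those 2 and that without double-mutant replicate 4. None of the 18 bundling, severing and capping relatives was called by edgeR. Enterocyte markers summed to 905 to 1069 CPM in control and 457 to 619 CPM in double-mutant mTEChi, with 4 of 15 tested called lower and 0 higher, and 1 of 15 tuft markers was called higher (Gnat3). Microfold sums were at 3552 to 4358 CPM in control and 2875 to 3400 CPM in double-mutant mTEChi, and neuroendocrine sums at 267 to 309 and 195 to 238 CPM, both without overlap. The part of these cell types in the results in mTEChi was not tested.

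The difference between double mutants and controls was compared between the subsets by an interaction term. All mTEChi libraries have sample numbers in a separate block from those of mTEClo, so subset cannot be told apart from any difference between these sets. For Vil1 the fall was larger in mTEChi by -0.60 on the log2 scale (SE 0.25) and for Myo1a it was smaller by 0.82 (SE 0.39), and neither passed after adjustment (adjusted p = 0.371 and 0.441, edgeR). Of the 7 genes, 0 were called by edgeR or DESeq2, with 2 at an unadjusted p under 0.05, where 0.0498% of 20095 genes were called, 6 higher and 4 lower, and 11.3% had such a p. With plain library totals 27 genes were called, 77.8% of them higher against 60%. Of the 4 lists, Cdhr5 alone was called, with a larger fall in mTEChi (log2 difference -1.50, SE 0.21, adjusted p = 0.0110, edgeR).

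Between control mTEChi and control mTEClo, which have the same 1 intact allele of each receptor, 1 bundling protein and both motors differed. Here too, subset cannot be told apart from any difference between the separate blocks of sample numbers. Espn, the espin gene, was 9.28-fold lower in mTEChi and Myo1d 2.45-fold lower, while Myo1a was 4.04-fold higher. Thus 1 of the 7 genes was called higher and 2 lower, where 22.2% of 20095 genes were called higher and 20.4% lower (42.6% in either direction), so the share of called members was close to that of all genes. The median log2 fold change was -0.03 over the 7 genes and 0.04 over all genes.

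Espn was at 200.3, 149.9, 191 and 126 CPM in the control mTEClo libraries and at 16.9, 13.6, 16.9 and 22.3 CPM in the control mTEChi libraries, which lie far below (log2 fold change -3.21, SE 0.17, adjusted p = 9.07e-11, edgeR). Myo1d was at 122, 102, 93.6 and 90.5 CPM in mTEClo and at 35.8, 43.4, 45.2 and 38.7 CPM in mTEChi, again without overlap (-1.29, SE 0.15, adjusted p = 2.20e-06). The Myo1a levels given above did not overlap between the subsets either, and every mTEChi control was higher (2.02, SE 0.27, adjusted p = 1.45e-05, edgeR). These 3 calls were kept whichever library was left out. Vil1 (-0.27, SE 0.17), Eps8 (0.28, SE 0.21) and Ezr (0.14, SE 0.10) had overlapping groups. Pls1 differed by -0.03 (SE 0.11), which became 0.02 with RLE size factors or by DESeq2, where the median of all genes went from 0.04 to 0.09 and 0.16.

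The 4 lists of relatives and partners were read between the control subsets against the 42.6% of all genes called. Of 18 bundling, severing and capping relatives, 9 were lower in mTEChi and 4 higher, led by Avil (149 ± 37.3 against 2570 ± 349 CPM), Svil, supervillin, and Gsn, gelsolin. Of 16 myosins and light chains, 9 were lower and 2 higher, with a median log2 fold change of -0.56. Of 11 assembly and adhesion genes, 4 were lower and 1 higher, among them Baiap2l1, which extends microvilli, at 35.6 against 118 CPM, Cdhr2 at 31.4 against 186 CPM and Calml4. Of 14 membrane linkage genes, 4 were higher and 2 lower, with Clic4 and Msn up 0.90 and 0.80 and Nf2 down, at -0.67, on the log2 scale. The called shares of the assembly and linkage lists were close to that of all genes.

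Tuft markers summed to 485 to 777 CPM in control mTEChi, against 9611 to 12694 CPM in control mTEClo, and 15 of 15 were called lower. Their defining channel gene Trpm5 was at 102 ± 32.1 against 1981 ± 277 CPM. Over the groups, Espn was at its highest in the 4 mTEClo genotypes, where the tuft sums were highest, intermediate outside the entero-hepato gate and lowest in the gate and in mTEChi. The ranges of Espn did not overlap between these 3 levels, although within the lowest level the gate had more Espn than most mTEChi libraries and lower tuft sums. Enterocyte markers were higher in mTEChi, with 8 of 16 called higher and 0 lower. Sums of all other marker lists except thymocyte and erythroid also differed without overlap between the control subsets, among them myeloid (1274 to 1705 CPM in mTEChi against 341 to 633 CPM in mTEClo), fibroblast (228 to 335 against 47.3 to 97.4 CPM) and keratinocyte markers (466 to 737 against 1388 to 2258 CPM). The part of these cell types in the levels of Espn, Myo1d and Myo1a was not tested.

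**Figure D3:**
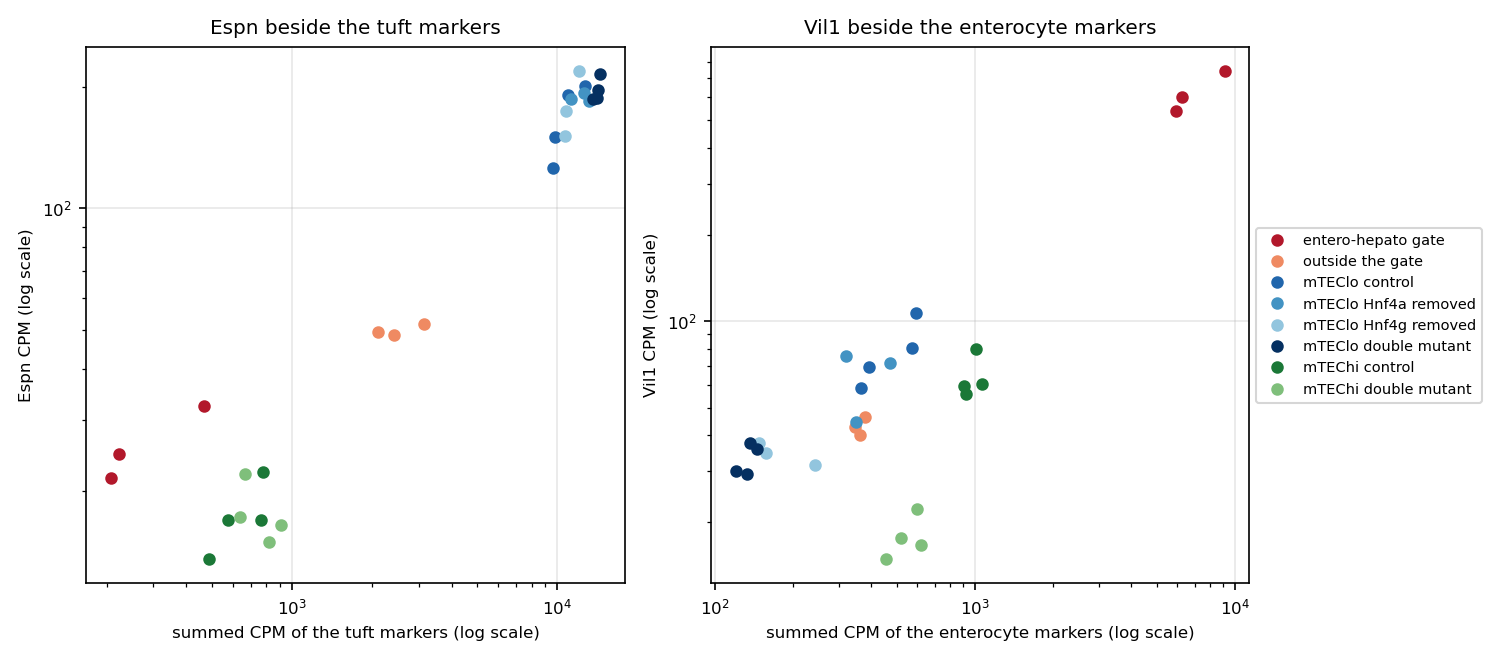
Left, CPM of Espn against the summed CPM of 15 tuft markers; right, CPM of Vil1 against the summed CPM of 16 enterocyte markers, both on log axes with 1 point per library and colours for the 8 groups. Espn is at 126 CPM or more only in mTEClo libraries with tuft sums of 9611 CPM or more, and double-mutant mTEChi have less Vil1 than double-mutant mTEClo at higher enterocyte sums.

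To compare genes with each other, levels were divided by the exon length of each gene in GENCODE M21. On this scale of CPM per kilobase the 7 genes summed to 588 ± 60.3 in the entero-hepato gate, against 141 ± 8.49 outside it and group means of 165 to 187 in mTEClo and mTEChi. Vil1 was the most abundant of the 7 in the gate, with 29.9% ± 1.93 of the summed level per kilobase (SD, n = 3), ahead of Ezr at 26.1% ± 3.18, Pls1 at 17.6% ± 0.385 and Myo1a at 17.4% ± 1.73. In the other 7 groups Ezr led, with between 50.6% in control mTEClo and 67.8% in double-mutant mTEChi. Espn made up 14.3% ± 1.18 of the summed level per kilobase in double-mutant mTEClo and 10.9% ± 2.69 in control mTEClo, but 1.18% ± 0.251 in control mTEChi and 0.548% ± 0.163 in the gate. Eps8 had at most 4.64% on this scale in any group, and its union of exons, at 12355 bases, is the longest of the 7, so exons not used in these cells would lower its value.

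**Figure D4:**
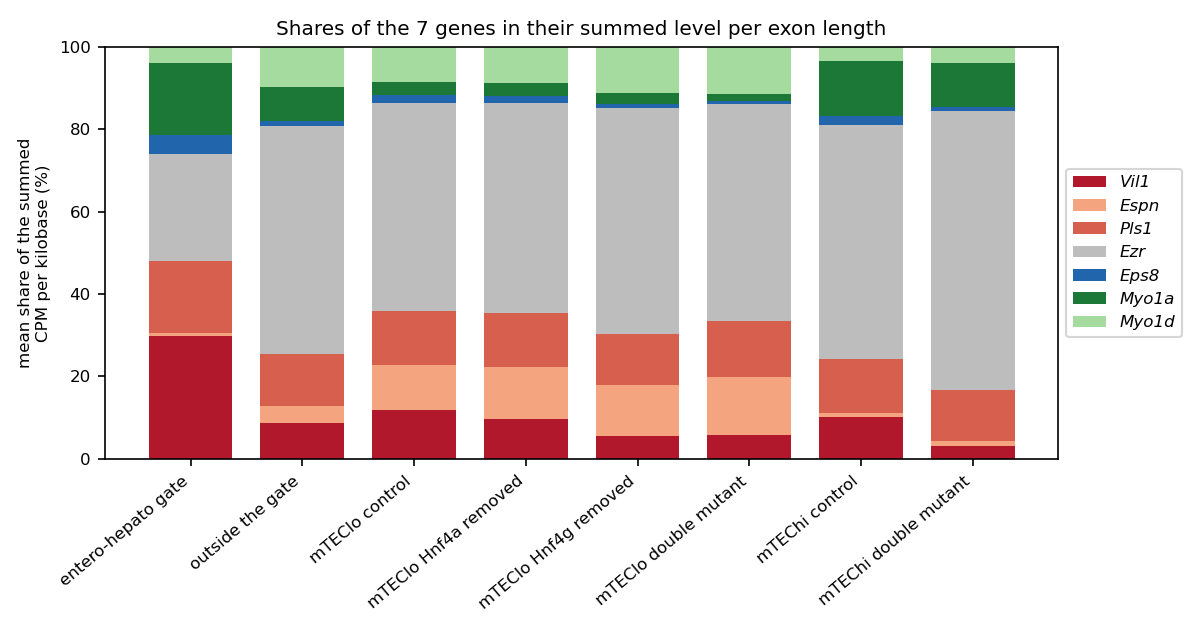
Mean share of each of the 7 genes in their summed CPM per kilobase of exon, in percent, for 8 groups as stacked bars from 0. Vil1, Pls1 and Myo1a take up more of the entero-hepato gate, Ezr leads in the other 7 groups, and Espn is a visible share mainly in mTEClo.

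The pattern of each gene over the 28 libraries was compared with 11056 other genes by Pearson's r of log2 CPM, as a description in which libraries of a group are not independent. Vil1 and Eps8 were the most alike of the 7 (r = 0.93), followed by Eps8 and Pls1 (0.91) and Vil1 and Pls1 (0.89), while Espn and Myo1a ran opposite (-0.82). Gpa33, Tmem8 and Gipc2 were the genes most like Vil1 (0.96, 0.96 and 0.95), Muc13, Slc39a4 and Lgals4 those most like Eps8 (0.97, 0.94 and 0.94), and Dstn, Reps2 and Mmp15 those most like Pls1 (0.96, 0.95 and 0.95). Sec14l1, Ptpn18 and Atp2a3 were most like Espn, each with r = 0.99. For Myo1a these were Myh15, Ephx2 and Btnl1 (0.96, 0.95 and 0.95), for Myo1d Slc4a7, Rab27a and Camta2 (0.96, 0.96 and 0.95) and for Ezr Ly6e, Gstp3 and Muc1 (0.90 each). After removal of the group means the same pairs were weaker, with r of 0.34 for Vil1 and Gpa33, 0.71 for Espn and Sec14l1 and 0.06 for Vil1 and Eps8, so most of the likeness lay between groups.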

How the data were processed

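Per the labels' protocols, thymi were digested, CD45+ cells depleted magnetically, and 1000 cells per library sorted, sorted again where numbers allowed. Polyadenylated RNA was reverse transcribed from oligo(dT), amplified, fragmented with Tn5, amplified for 18 PCR cycles and sequenced from both ends (38 bases each). Strand is not marked by this kit, so reads of overlapping opposite genes cannot be told apart: 1.38% of Vil1 exon bases overlap Usp37 and 0.122% of Ezr exon bases overlap Sytl3. Without molecular identifiers, PCR copies enter the counts.

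The authors deposited 1 table of whole-number read counts per gene, not normalized. They used STAR 2.7.3a, featureCounts and mm10, per the submitters' processing notes. The annotation and the settings of counting were not given in the sources used here. Every column matched a sample title, with 0 columns left over. Over 36 replicate pairs, chi-square divided by its degrees of freedom ranged from 6.43 to 27.5, far above sampling noise, and each library was counted as 1 replicate.

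The test was edgeR 4.0.16 under R 4.3.3 (TMM, filterByExpr with minimum count 10 and minimum total 15, robust quasi-likelihood fit). The gates had a fit of 6 libraries, mTEClo of 14, mTEChi of 8 and comparisons across subsets of 16, with 10 comparisons in all. SE is the log2 fold change over the square root of its F statistic. The script was tested on simulated data. Genes named were the 7 members, Hnf4a, Hnf4g, up to 3 called genes of smallest p per list and comparison, and the 3 genes of highest r with each member among those of mean CPM of at least 10 (prior count 2 for the log). Other genes named were picked after their values were seen, and some genes that the rule selects are not reported here. Gene positions are from GENCODE M21 on GRCm38, the build of mm10. The members and lists were chosen with earlier results of these data known.

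Of the further marker lists, microfold genes summed to 6390 to 6893 CPM in the entero-hepato gate and 2277 to 2428 outside it, secretory to 9180 to 10041 and 5347 to 5652, keratinocyte to 836 to 1126 and 330 to 650, ciliated to 123 to 199 and 249 to 451 and neuroendocrine to 341 to 403 and 138 to 302. Fibroblast genes summed to at most 604 CPM in any library, B cell to at most 239 and endothelial to at most 153. Alternatives were DESeq2 1.42.0, RLE factors, plain totals, no filter, a block for the thymus number, fits on the 2 groups compared, leaving out each library, and leaving out the 3 mTEClo libraries that stood apart. Plain totals as a test scale and leaving out those 3 were chosen after seeing the data.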

Additional observations from a re-analysis of the deposited data

Results flagged for a closer look

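Of the 28 groups of 4 libraries examined (7 genes in 4 groups), 1 held a library whose distance from the nearest other library, relative to the range of the group, was above Dixon's 95% critical value. This was Ezr in mTEChi of double mutants, where replicate 2 was at 436 CPM and the other three libraries at 352, 336 and 351 CPM. Chance alone marks about 1 in 20 groups in this way.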

How the results depend on the processing

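Depth and the number of libraries limit what could be called: the lowest count of a member in a library was 45, for Myo1a. Of member fold changes under settings other than leaving out a library, 415 kept direction and call, 12 gained a call, 3 lost one and 11, none of them called, changed sign. The cause was not tested.

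Counts of called genes moved most. In the order double mutant against control mTEClo, Hnf4a-removed against control, Hnf4g-removed against control, double mutant against Hnf4a-removed, double mutant against Hnf4g-removed, the interaction of the genotypes, double mutant against control mTEChi and the subset interaction, edgeR called 139, 1, 20, 38, 16, 0, 116 and 10 genes. DESeq2 called 451, 10, 137, 283, 159, 78, 424 and 345. Without a filter on low counts edgeR called 672, 71, 269, 454, 302, 171, 635 and 96. Fits on the 2 groups compared called 315 in double mutants against control mTEClo, 0 in Hnf4a-removed mTEClo and 1 in double mutants against Hnf4g-removed. Plain totals gave 3 for the interaction of the genotypes and 27 for the subset interaction. Without the 3 mTEClo libraries that stood apart, the first 6 counts were 582, 0, 12, 227, 292 and 28, and the subset interaction had 92.

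Of the 7 genes, double mutants against Hnf4a-removed mTEClo had 2 called by DESeq2, 3 without the filter and 1 without the 3 libraries, and Hnf4g-removed mTEClo had 2 without the filter and 0 in the fit of 2 groups. Without the 3 libraries, uncalled changes became 0.068 for Ezr and 0.061 for Myo1a in Hnf4a-removed mTEClo, 0.13 for Myo1d in double mutants against Hnf4g-removed and 0.26 for the Eps8 interaction of the genotypes. Pls1 in mTEChi against mTEClo controls became 0.023 by DESeq2 and 0.024 with RLE factors. With plain totals, 9 of 56 group levels moved by more than 1 SD.

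Deviations from group means were compared between samples with the same thymus number. Their correlations were over 0.1 in 3 of 31 pairs, all of number 1 in mTEClo. The highest was 0.303, for control and Hnf4g-removed number 1. In the gates each library correlated best with its own number. The labels do not say whether equal numbers pair libraries, and the main fits had no block. With the number as a replicate block, 210 genes were called in double mutants against control mTEClo, 2 in Hnf4a-removed mTEClo, 107 and 26 in double mutants against Hnf4a-removed and Hnf4g-removed, and 5 for the subset interaction. Under the block, 1 of the 7 genes was called in double mutants against Hnf4a-removed mTEClo (Vil1, adjusted p = 0.0176), Eps8 was at adjusted p = 0.0516 and Myo1a at 0.0314 in double mutants against control mTEClo (edgeR). In double-mutant mTEChi, the calls of Clic5 and Myo6 were lost under the block. Uncalled changes became 0.0073 for Pls1 and 0.015 for Myo1a in Hnf4a-removed mTEClo, 0.015 for Myo1d in double mutants against Hnf4g-removed, and 0.061 for Espn and 0.0100 for Myo1d in the interaction of the genotypes.

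Leaving out 1 library at a time gave 6295 to 6663 called genes for the gates and 7288 to 8347 for mTEChi against mTEClo controls. In the order above it gave 44 to 223, 0 to 1, 7 to 32, 3 to 53, 1 to 139, 0 to 11, 76 to 201 and 2 to 168. Called members ranged from 1 to 2 in double mutants against control mTEClo, from 0 to 1 in Hnf4g-removed mTEClo and from 0 to 1 in double mutants against Hnf4a-removed. Uncalled changes that crossed 0 ranged from -0.066 to 0.044 for Pls1 in mTEChi against mTEClo controls, and from -0.12 to 0.16 for Espn and -0.15 to 0.11 for Myo1d in double-mutant mTEChi. Against Hnf4a-removed, double mutants ranged from -0.18 to 0.021 for Ezr, and against Hnf4g-removed from -0.23 to 0.13 for Myo1d and -0.020 to 0.10 for Pls1. The interaction of the genotypes ranged from -0.51 to 0.091 for Eps8, -0.16 to 0.10 for Espn and -0.26 to 0.10 for Myo1d. Hnf4a-removed mTEClo ranged from -0.50 to 0.062 for Eps8, -0.13 to 0.068 for Ezr, -0.38 to 0.20 for Myo1a, -0.026 to 0.12 for Myo1d and -0.077 to 0.0098 for Pls1. Hnf4g-removed mTEClo ranged from -0.034 to 0.23 for Espn and -0.023 to 0.093 for Ezr.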
